A study of Mus musculus with 4 samples.

Results

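Pyruvate stands where glycolysis meets the mitochondrion, and 10 genes that decide which way it goes were compared between basal and luminal cells of the developing mouse prostate. They are the pyruvate carrier genes Mpc1 and Mpc2, the pyruvate dehydrogenase subunit genes Pdha1 and Pdhb, the pyruvate dehydrogenase kinase genes Pdk1, Pdk2 and Pdk4, the lactate dehydrogenase genes Ldha and Ldhb, and the pyruvate carboxylase gene Pcx. The genes were chosen by name for their role in the fate of pyruvate, and all 10 were found among the 49671 genes of the deposited table. RNA-seq had been performed on basal cells, described as multipotent, and on luminal cells derived from them. Both were EpCAM high, with CD49f high in basal and low in luminal cells, and were sorted after CD45, CD31 and CD140a positive cells had been excluded. Both groups came from untreated CD-1 mice at postnatal day 10 to 13 by the labels (the methods of the study end this range 1 day earlier), carried no transgene or deletion named in the labels, and were taken from cut tips of ventral lobes pooled over mice. Each group had 2 libraries, numbered 1 and 3 for basal and 3 and 2 for luminal cells, and values are given in this order throughout. The labels do not say whether the libraries of a group came from separate animals, so the spread between them may be technical.

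The mitochondrial pyruvate carrier, a pair of inner membrane proteins, brings pyruvate from the cytosol into the matrix. There the pyruvate dehydrogenase complex turns it into acetyl-CoA for the tricarboxylic acid cycle, while pyruvate carboxylase turns it into oxaloacetate. Pyruvate dehydrogenase kinases switch the complex off by phosphorylating its E1 alpha subunit, and lactate dehydrogenase interconverts pyruvate and lactate in the cytosol. The prostate epithelium is known for making and secreting citrate, for which both oxaloacetate and acetyl-CoA are needed.

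The deposited values were gene counts that the authors scaled to one total, between 19998940 and 20071189 per library, and rounded. The spacing of the values gave the worth of 1 read, from which 3194307 and 3079273 reads were recovered for the basal libraries (replicates 1 and 3) and 1036685 and 643267 for the luminal ones (replicates 3 and 2). The luminal libraries were thus the shallower ones, so depth and cell type cannot be told apart. Nuclear protein-coding genes held 76.0% and 74.7% of the basal values but 57.3% and 64.2% of the luminal ones. Rescaling to those genes shifts all genes alike, and it took their median from -0.10 to 0.21 on the log2 scale. All 6 basal markers were higher in both basal libraries than in either luminal one (Krt5 at 18481 and 15824 against 77 and 93), and 5 of 6 luminal markers were higher in both luminal libraries (Krt8 at 3012 and 4287 against 13302 and 8320), so the markers followed the sort labels. RNA of other cell types was also measured in every library. The summed value of 6 fibroblast markers was 100128 and 206090 in the basal libraries and 70885 and 196201 in luminal replicates 3 and 2, and that of 5 smooth muscle markers was 30255 and 52272 against 9887 and 60111. Pdgfra, the gene of the CD140a antigen used for exclusion, was itself at 3307 and 4144 against 2575 and 8383. Of the 6 fibroblast markers 5 overlapped between the groups. The other, Dcn, was lower in both luminal libraries, at 45830 and 47724 against 5770 and 20256. In such bulk samples fewer cells of a type and less RNA per cell cannot be told apart.

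The largest differences between basal and luminal cells were in the pyruvate dehydrogenase kinases and in Ldhb, while the carrier, the dehydrogenase subunits, Ldha and Pcx differed by at most 1.30-fold on average. Among the kinases, Pdk4 averaged 8.42-fold and Pdk1 2.11-fold lower in luminal cells, and Pdk2 averaged 2.42-fold higher. Ldhb averaged 3.97-fold lower, from basal values that lie off the read spacing of their libraries, and without Ldhb 3 of the remaining 9 genes passed the fold threshold. These 4 of 10 genes passed the fold threshold of the study (a ratio of group averages of at least 2 or at most 0.5), 3 of them with the higher level in basal cells, where 16.3% of the 18737 genes tested passed, and 1 with the higher level in luminal cells, where 18.3% passed. In limma, run on log2(normalized value + 1) with Benjamini-Hochberg adjustment over all genes tested, 0 of the 10 genes reached an adjusted p under 0.05, against 0.694% of all genes. At an unadjusted p under 0.05, limma called 3 of the 10 (Pdk2, Pdk4 and Ldhb), with 18.5% of all genes at that level. On recovered reads edgeR called 1 of the 10, Pdk4, against 5.08% of all genes, and DESeq2 called the same gene, against 4.37%. The libraries of the groups did not overlap for 4 genes higher in basal cells (Pdha1, Pdk1, Pdk4 and Ldhb) and 3 higher in luminal cells (Pdk2, Ldha and Pcx), and over all genes 27.3% and 23.6% did not overlap in these directions. The median log2 fold change of the 10 genes was -0.18 (luminal minus basal), beside -0.10 over all genes tested.

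**Figure D1:**
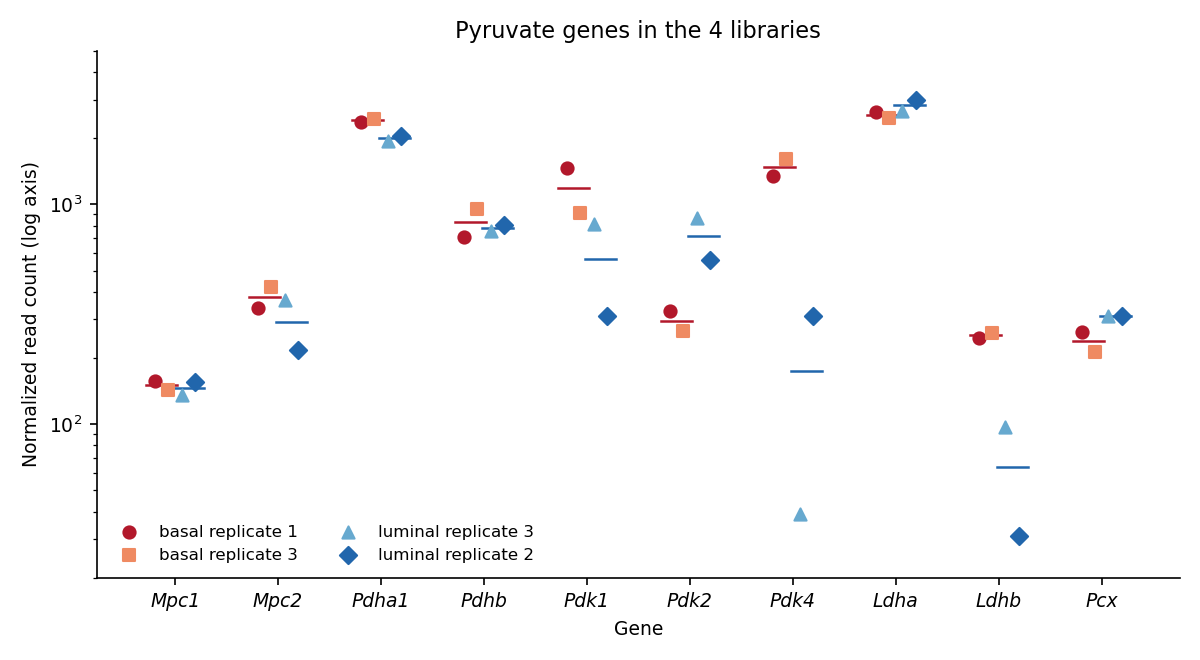
Normalized read count (log axis) of the 10 pyruvate genes in both basal and both luminal libraries, 1 symbol per library, with short lines at the group means (n = 2). Pdk4 was at 1346 and 1611 in basal cells and at 39 and 312 in luminal cells, whereas the 4 values of Ldha lay between 2468 and 2992.

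The pyruvate carrier was measured at low levels in both cell types. Mpc1 (ENSMUSG00000023861, GRCm38 chr17:8282904-8297661, plus strand) was at 157 and 143 in basal replicates 1 and 3 and at 136 and 156 in luminal replicates 3 and 2. The luminal values thus fell on either side of the lower basal value. Its log2 fold change of -0.04 ± 0.58 (SE, limma adjusted p = 0.979) had a 95% interval from -1.49 to 1.41, wide enough to hold a 2-fold change in either direction. It was 0.27 after rescaling to nuclear protein-coding genes, near the median of all genes under that scaling. In luminal cells the value rested on 7 and 5 reads. A processed pseudogene, Mpc1-ps, matches Mpc1 transcripts at 99.7% over 330 bases and was listed at 119, 143, 77 and 62 in the same library order, so reads of the gene and the copy may have been split. The sum of both was 276, 286, 213 and 218. A non-coding gene on the opposite strand, 4930506C21Rik, shares 480 of the 2082 exon bases of Mpc1, and with the use of strand not stated their reads cannot be told apart.

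Mpc2, the partner subunit (ENSMUSG00000026568, GRCm38 chr1:165460637-165481214, plus strand), was at 338 and 422 in basal cells and at 368 and 218 in luminal cells. Luminal replicate 3 lay between the basal libraries and luminal replicate 2, with 7 reads, lay under both. The log2 fold change was -0.41 ± 0.46 (SE, limma adjusted p = 0.646), with an interval from -1.57 to 0.74. Per kb of exon, Mpc1 stood 1.64-fold and 1.2-fold above Mpc2 in basal replicates 1 and 3 and 1.3-fold and 2.52-fold above it in luminal replicates 3 and 2. This balance overlapped between the groups (difference of 0.37 on the log2 scale; two-sided exact permutation p = 0.667). Leaving out luminal replicate 2 turned its direction, to -0.10. The order of Mpc1 and Mpc2 rests on the exon bases annotated for them, 2082 and 7344. Before this scaling Mpc1 was lower than Mpc2 in every library.

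The catalytic E1 subunits of pyruvate dehydrogenase, which take the carboxyl group off pyruvate, differed little. Pdha1, the E1 alpha subunit that the kinases phosphorylate (ENSMUSG00000031299, GRCm38 chrX:160122209-160138413, minus strand), was at 2380 and 2455 in basal cells and at 1936 and 2057 in luminal cells. Both luminal libraries were lower, and the difference did not pass the test (log2 fold change -0.28 ± 0.22, SE, limma adjusted p = 0.524). The interval of -0.82 to 0.27 leaves out a 2-fold change, and the value was 0.03 after rescaling to nuclear protein-coding genes, still under the median of all genes on that scale (0.21), and 0.01 under quantile normalization. Map3k15 on the opposite strand shares 603 of the 3734 exon bases of Pdha1 and was at 426 to 557, so part of the Pdha1 value may come from it or go to it.

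Pdhb, the E1 beta subunit (ENSMUSG00000021748, GRCm38 chr14:8165996-8173025, minus strand), was at 714 and 955 in basal cells and at 755 and 810 in luminal cells. Both luminal values lay between the basal ones. Its log2 fold change was -0.08 ± 0.30 (SE, limma adjusted p = 0.908), with an interval from -0.83 to 0.67, and was 0.23 under the rescaling to nuclear protein-coding genes, near the median of all genes on that scale, and 0.10 under quantile normalization. A pseudogene with 97% identity over 1079 bases, Gm6123, was at 56 and 149 in basal and at 213 and 156 in luminal cells. Per kb of exon, Pdha1 exceeded Pdhb 3.45-fold and 2.66-fold in basal cells and 2.65-fold and 2.63-fold in luminal cells. The luminal ratios lay just under the lower basal one (difference of -0.20 on the log2 scale; two-sided exact permutation p = 0.333, the smallest that 2 libraries against 2 can give).

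The kinases did not differ in one direction, and among them was Pdk4, with the widest difference of the 10 genes. Pdk4, the kinase known to be induced by fasting and fatty acids (ENSMUSG00000019577, GRCm38 chr6:5483351-5496309, minus strand), was at 1346 and 1611 in basal cells and at 39 and 312 in luminal cells. Both luminal libraries were far below both basal ones, and on the log scale they differed from each other more than the basal libraries did. The log2 fold change was -3.72 ± 0.97 (SE, limma adjusted p = 0.117), with an interval from -6.16 to -1.28. On recovered reads the adjusted p was 0.00824 in edgeR and 0.000384 in DESeq2, and in limma it was 0.0329 when the filter required signal in both groups. The luminal values came from 2 and 10 reads, for which the exact 95% Poisson intervals on the normalized scale were 4.69 to 140.0 and 149 to 573, against 1170 to 1540 and 1420 to 1820 in basal cells. These intervals cover counting error only. Leaving out a single library gave log2 fold changes between -5.20 and -2.24, the lesser of them without luminal replicate 3. Matches of Pdk4 transcripts to other genes at 95% identity or more spanned at most 126 bases.

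Markers of tissues in which Pdk4 is well known to be expressed were read beside it. The summed value of 4 skeletal muscle markers was 620 and 993 in basal cells, 135 in luminal replicate 3 and 1215 in luminal replicate 2, with Acta1 the largest part in each library (601 and 948 against 77 and 1184) and Ckm, Mylpf and Tnnt3 at 39 or less in every library. Of the adipocyte markers, 3 of 4 (Adipoq, Plin1 and Lep) were at 0 in every library. The fourth, Fabp4, was at 38 and 39 in basal cells, or 6 reads each, and at 0 in both luminal libraries, the same direction as Pdk4. In luminal replicate 2, which had the highest sum of the smooth muscle markers and the highest Acta1, Pdk4 was at 312, under both basal libraries. In luminal replicate 3, which had the lowest of both, it was at 39. The part of these cells in the Pdk4 values was not tested.

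Pdk1, the kinase best known as a target of hypoxia-inducible factor (ENSMUSG00000006494, GRCm38 chr2:71873224-71903858, plus strand), was at 1465 and 909 in basal cells and at 813 and 312 in luminal cells. Luminal replicate 3 came close to basal replicate 3, and the groups did not overlap. The luminal libraries differed from each other by a larger factor than the group averages did, and the log2 fold change of -1.19 ± 0.54 (SE, limma adjusted p = 0.319; interval -2.56 to 0.17) did not pass the test. In edgeR the adjusted p was 0.271. Leaving out 1 library gave values from -1.88 to -0.50, the former without luminal replicate 3 and the latter without luminal replicate 2. Its ratio no longer passed the fold threshold without basal replicate 1, without luminal replicate 2, under quantile normalization or after rescaling to nuclear protein-coding genes.

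Pdk2, the most widely expressed of the kinases (ENSMUSG00000038967, GRCm38 chr11:95026258-95041354, minus strand), was at 326 and 266 in basal cells and at 871 and 561 in luminal cells. Both luminal libraries were higher than both basal ones, the opposite of Pdk1 and Pdk4. The log2 fold change was 1.24 ± 0.39 (SE, limma adjusted p = 0.184; interval 0.25 to 2.23), and its adjusted p was 0.111 in edgeR and 0.262 in DESeq2. Its direction was the same in all 15 alternatives, between 0.93 and 1.56, and it was called in 0 of them. Without luminal replicate 3 its ratio did not pass the fold threshold.

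The make-up of the 3 kinases was set per kb of all annotated exon bases and is given as a description with no test of the shares. These bases may differ from the length of the transcripts present, so levels of different genes compare only roughly. Before this scaling Pdk1 (1465) stood above Pdk4 (1346) in basal replicate 1. Pdk4 held 56.8% and 69.5% of their summed level in basal replicates 1 and 3 but 2.84% and 29.0% in luminal replicates 3 and 2. Pdk2 held 15.3% and 12.7% in basal cells and 70.4% and 57.9% in luminal cells, where it was the leading kinase of the 3 in both libraries. The share of Pdk1 overlapped, at 27.9% and 17.7% in basal and 26.7% and 13.1% in luminal cells. The fourth family member, Pdk3, was at 176 and 139 per kb in basal cells and at 166 and 85.1 in luminal cells (limma adjusted p = 0.680). With Pdk3 counted in, Pdk4 held 45.1% and 57.4% in basal and 1.99% and 22.7% in luminal cells, and Pdk2 held 12.1% and 10.5% against 49.4% and 45.3%.

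The summed level of the 3 kinases was 675 and 660 per kb in basal cells and 391 and 306 in luminal cells, while that of their substrate subunits Pdha1 and Pdhb was 822 and 905 against 714 and 761. Kinase over dehydrogenase was thus 0.821 and 0.729 in basal cells and 0.548 and 0.403 in luminal cells. Both luminal libraries were lower, by 0.72 on average on the log2 scale (two-sided exact permutation p = 0.333, the smallest possible; 0.416 after adjustment over the 5 balances tested). With Pdk3 added, the ratio was 1.03 and 0.883 in basal cells and 0.781 and 0.515 in luminal cells.

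**Figure D2:**
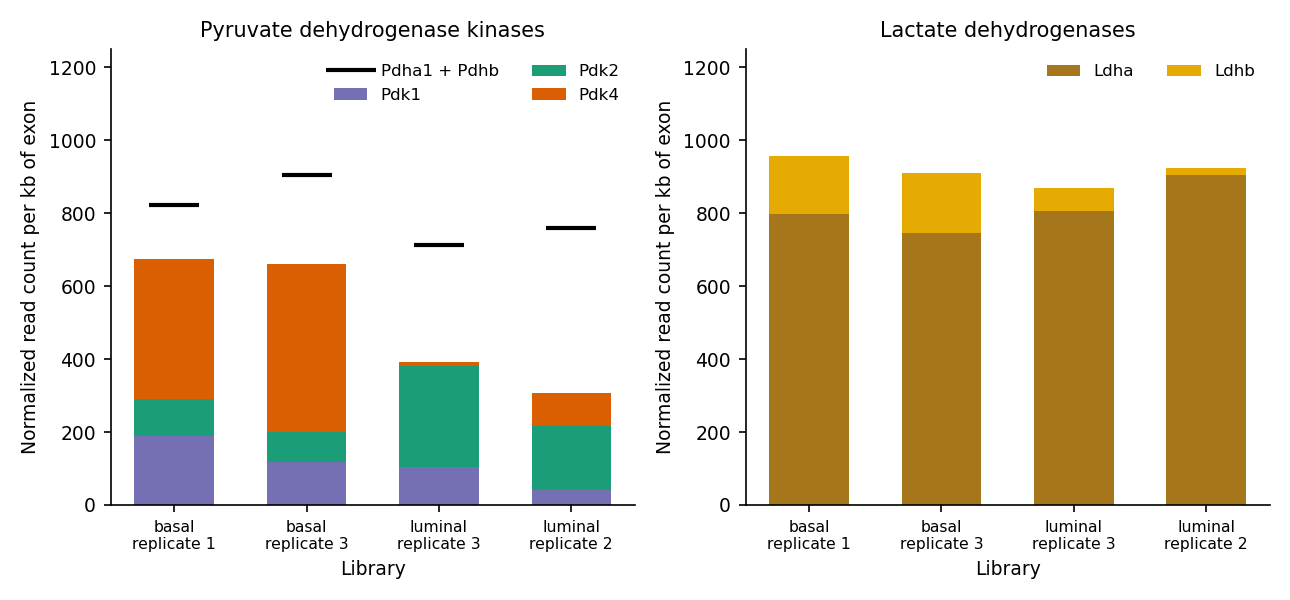
Normalized read count per kb of exon in each library, stacked for the kinases Pdk1, Pdk2 and Pdk4 (left, with a black line at the sum of Pdha1 and Pdhb) and for Ldha and Ldhb (right). The kinase stacks reach 675 and 660 in basal and 391 and 306 in luminal libraries, whereas the lactate dehydrogenase stacks all lie between 869 and 956.

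The promoters of these 3 kinases are shown because the genes differed in opposite directions and because Hif1a and Foxo1, regulators described below, were lower in luminal cells. Each sequence is the 250 bases before a RefSeq transcript start (GRCm38.p6), read 5′ to 3′ on the strand of the gene, with matches to the core of the hypoxia response element in capitals. The letters searched were ACGTG and GCGTG on both strands, and 38.6% of 32851 mouse promoters of this length hold at least 1 match.
Pdk4, chr6:5496279-5496528, minus strand: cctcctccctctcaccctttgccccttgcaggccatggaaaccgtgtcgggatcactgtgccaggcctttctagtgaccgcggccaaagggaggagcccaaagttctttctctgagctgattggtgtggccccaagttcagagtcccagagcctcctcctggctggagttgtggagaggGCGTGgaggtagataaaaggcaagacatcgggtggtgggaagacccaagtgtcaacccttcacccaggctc
Pdk1, chr2:71872974-71873223, plus strand: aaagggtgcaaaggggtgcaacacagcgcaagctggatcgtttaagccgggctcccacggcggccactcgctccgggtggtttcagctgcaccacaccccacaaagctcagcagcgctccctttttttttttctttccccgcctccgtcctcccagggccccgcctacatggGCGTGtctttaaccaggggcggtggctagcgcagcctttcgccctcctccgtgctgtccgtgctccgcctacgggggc
Pdk2, chr11:95041372-95041621, minus strand: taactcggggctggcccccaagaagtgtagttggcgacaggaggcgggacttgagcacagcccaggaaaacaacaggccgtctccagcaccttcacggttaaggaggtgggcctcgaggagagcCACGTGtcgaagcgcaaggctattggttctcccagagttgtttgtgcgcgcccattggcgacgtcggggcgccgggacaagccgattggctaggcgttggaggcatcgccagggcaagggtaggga
Pdk4 and Pdk1 each had 1 match, and Pdk2 had 2 that overlap in a single palindrome. RefSeq gives Pdk1 and Pdk2 a second start each, further into the gene, and the windows before those starts had 0 matches. In the windows shown, the core was present in front of the kinase that was higher in luminal cells as well as those that were lower. Whether any factor binds there was not tested. The FOXO site GTAAACA, searched on both strands, occurs in 3.17% of the promoters and had 0 matches in these 3 windows, which says only that the letters are not there.

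Pyruvate carboxylase, the anaplerotic enzyme that makes oxaloacetate, averaged 1.30-fold higher in luminal cells, a difference that did not pass the test. Pcx (ENSMUSG00000024892, GRCm38 chr19:4510472-4621752, plus strand) was at 263 and 214 in basal cells and at 310 and 312 in luminal cells. The groups did not overlap, although the luminal values came from 16 and 10 reads. The log2 fold change was 0.39 ± 0.43 (SE, limma adjusted p = 0.646; interval -0.70 to 1.48). Pcx per kb was 0.0868 and 0.0685 of Pdha1 in basal cells and 0.126 and 0.119 of it in luminal cells. Both luminal ratios were higher, by 0.67 on average on the log2 scale (two-sided exact permutation p = 0.333; 0.416 after adjustment over the 5 balances).

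Of the lactate dehydrogenases, Ldha differed little between the cell types and Ldhb averaged lower in luminal cells. Ldha, the subunit that predominates in glycolytic tissues (ENSMUSG00000063229, GRCm38 chr7:46841475-46855627, plus strand), was at 2643 and 2468 in basal cells and at 2672 and 2992 in luminal cells. The groups did not overlap, although luminal replicate 3 lay close to basal replicate 1. The log2 fold change was 0.15 ± 0.22 (SE, limma adjusted p = 0.733), and its interval of -0.40 to 0.69 leaves out a 2-fold change. Processed pseudogenes of Ldha with at least 95% identity over 100 bases were at no more than 93 in any library where they were listed. The longest matches, Gm5452 (95.9% over 997 bases) and Gm9247 (95.6% over 1000 bases), had no listed values, so reads going to them could not be checked.

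Ldhb, the subunit that predominates in heart (ENSMUSG00000030246, GRCm38 chr6:142490249-142507957, minus strand), was at 247 and 261 in basal cells and at 97 and 31 in luminal cells. Both luminal libraries were lower, with 5 reads and 1 read. The log2 fold change was -2.19 ± 0.80 (SE, limma adjusted p = 0.239; interval -4.21 to -0.17), with an adjusted p of 0.224 in edgeR and 0.466 in DESeq2. It was -1.38 without luminal replicate 2 and -2.99 without luminal replicate 3. Ldhb was also the only one of the 10 genes with values off the spacing of 1 read. Its value in basal replicate 1 equals 39.4 reads of that library but 38.0 reads of basal replicate 3, and its value in basal replicate 3 equals 40.2 reads. The basal values can therefore not be tied to whole reads of the libraries they are listed under, and the direction for Ldhb rests on them. A processed pseudogene of Ldhb, Gm5514, has 98% identity over 1002 bases. It was at 0 and 26 in basal and at 19 and 0 in luminal cells, so reads may have been split.

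Ldha per kb exceeded Ldhb 5.08-fold and 4.49-fold in basal cells and 13.1-fold and 45.8-fold in luminal cells. The balance was 2.36 higher in luminal cells on the log2 scale (two-sided exact permutation p = 0.333; 0.416 after adjustment over the 5 balances), and both luminal libraries lay above both basal ones. It was 1.45 without luminal replicate 2 and 3.26 without luminal replicate 3. The summed level of both subunits stayed between 869 and 956 per kb in the 4 libraries, since Ldha made up most of it throughout.

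**Figure D3:**
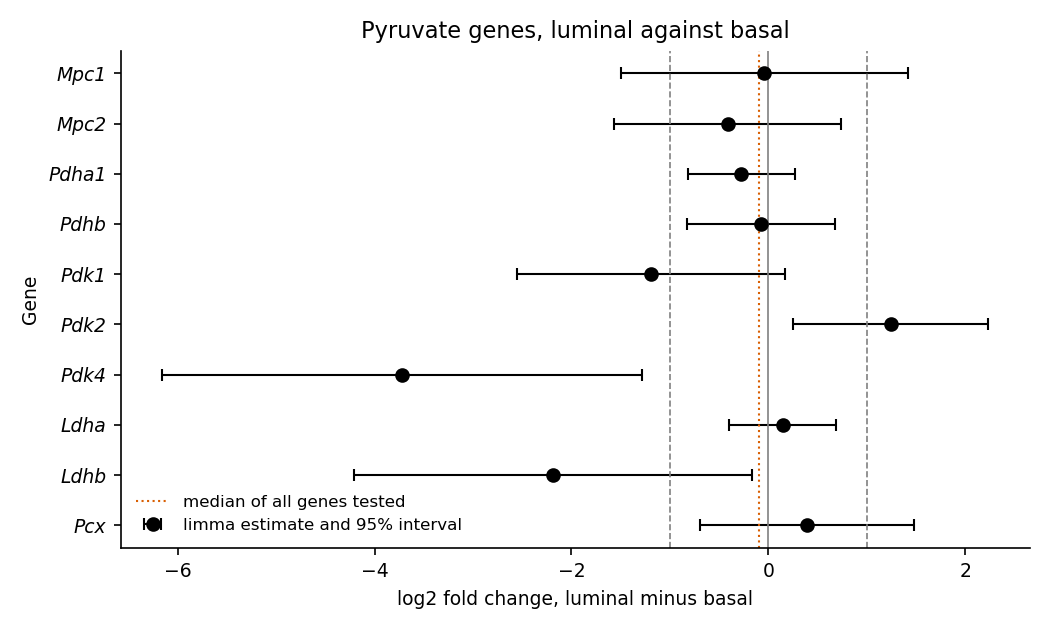
log2 fold change (luminal minus basal) of each pyruvate gene with its 95% interval from limma, n = 2 libraries per group, with grey lines at 0 and at a 2-fold change (dashed) and a dotted line at the median of all genes tested (-0.10). The intervals of Pdk2, Pdk4 and Ldhb leave out 0 before adjustment, and those of Pdha1, Pdhb and Ldha lie within a 2-fold change.

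Levels per kb depend on the exon bases annotated for each gene, so an order by them is approximate. Ordered by level per kb, basal cells were led by Ldha (799 and 746), Pdha1 (637 and 658) and Pdk4 (383 and 459), 3 genes whose libraries did not overlap one another. Pdhb (185 and 247) and Pdk1 (188 and 117) overlapped, and Ldhb (157 and 166) lay within the range of Pdk1. Pdk2, Mpc1, Mpc2 and Pcx followed, with Mpc2 and Pcx overlapping. Luminal cells were also led by Ldha (807 and 904) and Pdha1 (519 and 551), followed by Pdk2 (275 and 177) and Pdhb (196 and 210), which overlapped. The other 6 genes were all at or under 104.5 per kb in luminal cells and their ranges overlapped in most pairs. Pdk4 went from the third highest mean of the 10 in basal cells to the third lowest in luminal cells, with luminal levels of 11.1 and 88.9.

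Other genes of pyruvate metabolism were read from 8 lists with 64 genes, of which 58 were tested. limma called 2 of the 58, Hif1a and Adm, both lower in luminal cells, against 0.694% of all genes. edgeR called 9 (3 higher and 6 lower in luminal cells), against 5.08% of all genes, and DESeq2 called 7, against 4.37%. By the fold threshold 11 of the 58 were higher in luminal cells, with 18.3% of all genes past it, and 16 were lower, with 16.3% of all genes past it. These background shares hold for each list below, and the median log2 fold change was -0.19.

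The remaining parts of the pyruvate dehydrogenase complex and its regulators gave 0 limma calls among 7 genes, with 2 at an unadjusted p under 0.05 (Dld and Pdhx) and 0 called by edgeR or DESeq2. Dld, the E3 subunit shared with other dehydrogenase complexes, was at 1271 and 1475 in basal cells and at 639 and 717 in luminal cells (log2 fold change -1.02 ± 0.27, SE, limma adjusted p = 0.120). Pdhx, which anchors E3 to the complex, was at 143 and 103 against 310 and 343 (1.42 ± 0.52, SE, limma adjusted p = 0.236), and its basal values lay off the spacing of 1 read like those of Ldhb. Pdp1, the phosphatase that reverses the kinases, was at 344 and 487 in basal and at 484 and 779 in luminal cells, which overlapped. Dlat, the E2 core, was at 526 and 442 against 407 and 499 and also overlapped. The median of the list was 0.19.

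The lipoyl, thiamine and biotin cofactor genes, which serve the dehydrogenase complex and the carboxylase, had the highest list median, at 0.78 over 5 tested genes, with 0 limma calls, 0 by edgeR or DESeq2 and 0 at an unadjusted p under 0.05. Lias, the lipoic acid synthase, was at 319 and 156 in basal cells and at 542 and 467 in luminal cells (limma adjusted p = 0.293). Hlcs, which attaches biotin to carboxylases, was at 301 and 214 against 542 and 280, and its libraries overlapped.

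Of 7 tested genes for plasma membrane transporters of pyruvate and lactate and their chaperones, 3 were past the fold threshold toward luminal cells (Slc5a8, Emb and Slc16a8, the last from 5 reads and 1 read; 18.3% of all genes) and 2 toward basal cells (Bsg and Slc16a1; 16.3%). limma called 0 of the 7, with 3 at an unadjusted p under 0.05 (18.5% of all genes), while edgeR called 3 (5.08%) and DESeq2 called 2 (4.37%). Slc5a8, a sodium-coupled monocarboxylate transporter, was at 0 and 26 in basal cells, or 0 and 4 reads, and at 523 and 561 in luminal cells (limma adjusted p = 0.105). On recovered reads its adjusted p was 0.00461 in edgeR. Emb, a chaperone of monocarboxylate transporters, was at 213 and 403 against 1588 and 841 (1.98 ± 0.50, SE, limma adjusted p = 0.106; edgeR 0.0291, DESeq2 0.0188). Bsg, the main chaperone of Slc16a1 and Slc16a3, was at 4547 and 4242 against 2072 and 1932 (-1.13 ± 0.21, SE, limma adjusted p = 0.0688; edgeR 0.0490, DESeq2 0.121). Slc16a1, which encodes the lactate and pyruvate transporter MCT1, was at 1854 and 1559 in basal cells and at 407 and 1215 in luminal cells (limma adjusted p = 0.295). Of the other lactate dehydrogenase genes only Ldhd, the D-lactate dehydrogenase, was tested, at 257 and 214 against 116 and 187 (limma adjusted p = 0.550).

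Enzymes that make or use pyruvate elsewhere had a list median of 0.17 with 0 of 8 called by limma (2 at an unadjusted p under 0.05), 1, Gpt2, called by edgeR and 0 by DESeq2. Gpt2, the mitochondrial alanine aminotransferase, was at 292 and 238 in basal cells and at 910 and 810 in luminal cells (1.70 ± 0.34, SE, limma adjusted p = 0.0705; edgeR 0.0299, DESeq2 0.0502), with both basal values off the spacing of 1 read. Its cytosolic counterpart Gpt was at 388 and 448 against 194 and 62 (-1.91 ± 0.69, SE, limma adjusted p = 0.233, edgeR 0.186, DESeq2 0.397). Me3, a mitochondrial malic enzyme, was at 219 and 136 against 19 and 125 (limma adjusted p = 0.438). Pkm, the pyruvate kinase that supplies the pool, was at 3701 and 2637 against 2846 and 3490, with both luminal libraries inside the basal range.

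Among 11 regulators of pyruvate genes, 5 were past the fold threshold, all lower in luminal cells, where 16.3% of all genes passed, and the median log2 fold change was -0.71. limma called 1 of the 11 (0.694% of all genes), and edgeR and DESeq2 called 3 each (5.08% and 4.37% of all genes). Hif1a, the oxygen-sensitive subunit of hypoxia-inducible factor, was at 8066 and 7028 in basal cells and fell to 2169 and 2400 in luminal cells (-1.72 ± 0.22, SE, limma adjusted p = 0.0497; edgeR 0.00462). This limma call was lost with no filter, without the trended prior and under median-ratio, TMM, quantile and nuclear protein-coding scaling. Epas1, its paralog HIF-2 alpha, was at 3952 and 1994 against 465 and 873 (limma adjusted p = 0.0786; edgeR 0.00908). Foxo1, a transcription factor known to act on Pdk4, was at 4240 and 3157 against 1142 and 1527 (-1.47 ± 0.28, SE, limma adjusted p = 0.0705; edgeR 0.0182). These 3 were all lower in both luminal libraries. Myc and Ppargc1a overlapped between the groups, at 2624 and 4547 against 4763 and 4238 and at 2931 and 2189 against 3505 and 2618.

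Hypoxia targets other than the genes above numbered 11, and their log2 fold changes had a median of -1.19, with 6 past the fold threshold toward basal cells (16.3% of all genes) and 1 toward luminal cells (18.3%). limma called 1 of the 11 (0.694% of all genes), and edgeR and DESeq2 called 2 each (5.08% and 4.37%). Adm, which encodes adrenomedullin, was at 1547 and 1286 in basal cells and fell to 97 and 62 in luminal cells (-4.17 ± 0.44, SE, limma adjusted p = 0.0410). Egln3, a prolyl hydroxylase that marks hypoxia-inducible factor for breakdown, was at 1215 and 500 against 39 and 93 (limma adjusted p = 0.0705; edgeR 0.00633). Bnip3, a mitophagy receptor, was at 426 and 201 against 116 and 125 (limma adjusted p = 0.340). The glycolytic target Pgk1 overlapped, at 482 and 266 against 465 and 187, as did Ddit4. The limma calls of Hif1a and Adm were both lost when any 1 library was left out, whereas edgeR and DESeq2 called both.

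PPAR and fatty acid oxidation targets, a group to which Pdk4 also belongs, had a median of 0.05 over 8 tested genes with 0 called by limma, edgeR or DESeq2 and 0 at an unadjusted p under 0.05. Acot2, a mitochondrial acyl-CoA thioesterase, was at 106 and 97 in basal cells and at 213 and 343 in luminal cells (limma adjusted p = 0.281). Hadha, the trifunctional protein subunit, was at 2042 and 1799 against 1626 and 1714. Cpt1a, the gate for fatty acids into mitochondria, was at 1415 and 1267 against 1375 and 1309.

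**Figure D4:**
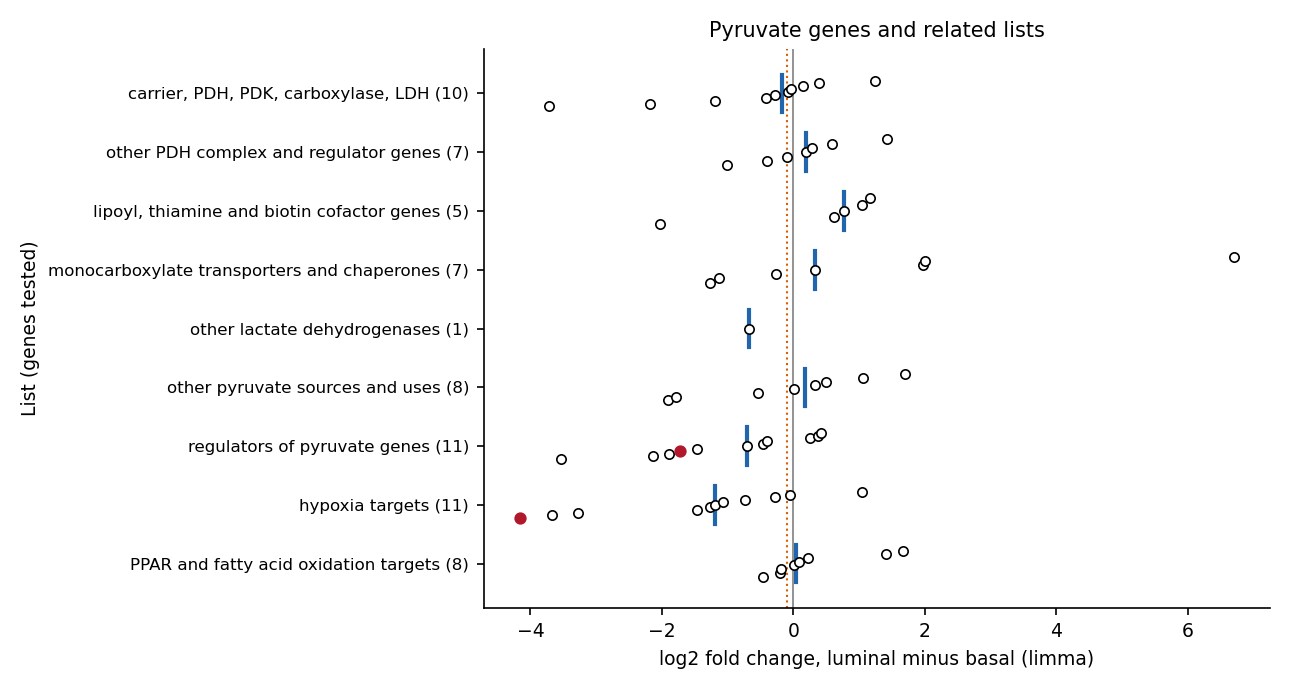
log2 fold change (luminal minus basal, limma) of every tested gene of the 10 pyruvate genes and of the 8 related lists, 1 point per gene, red where the adjusted p is under 0.05, with a blue bar at each list median and a dotted line at the median of all genes (-0.10). The only red points are Hif1a and Adm, and the hypoxia targets have the lowest list median at -1.19.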

How the data were processed

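RNA-seq was performed on 4 libraries of sorted mouse prostate cells. Per the labels and the methods of the study, the authors aligned reads to GRCm38 with STAR, counted them on genes with HTSeq (Picard is also named; versions are not given in the sources used here) and scaled the counts. They deposited the scaled and rounded count, a signal per gene and library. Whether duplicates were removed and whether strand was used in counting is not given there. Of the values, 98.3% to 99.2% lay within 0.6 of a multiple of the worth of 1 read (6.26 and 6.50 in basal replicates 1 and 3, 19.4 and 31.2 in luminal replicates 3 and 2), checked up to 1000 reads. For luminal replicate 2 the spacing is only a close estimate.

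Genes entered the tests if in either group both samples reached 10 and averaged at least 20. limma 3.58.1 (trended prior, pseudocount 1) tested luminal minus basal over 18737 genes, and a fold change is on the log2(value + 1) scale. Since 1 is under the worth of 1 read, a library at 0 or a few reads widens the fitted change of a low gene (Slc5a8 at 6.71, against 5.38 for the log2 ratio of averages). Fold calls used ratios of group averages. edgeR 4.0.16 and DESeq2 1.42.0 ran on recovered reads as alternatives. Balances of genes used values per kb of all annotated exon bases and two-sided exact permutation tests. Those bases may differ from the transcripts present, so the levels of different genes compare only roughly. Alternatives changed the filter, pseudocount, scaling, model and fold threshold and left out each library. Leaving out genes off the spacing and adding Pdk3 to the kinase sum were added after seeing the data. Symbols and positions came from GENCODE M21, which held 49326 of 49671 identifiers, copies from blastn 2.17.0+ (at least 95% over 100 bases) and promoters from RefSeq, matched for all 10 genes. Other tools were R 4.3.3, Python 3.11.15, numpy 2.4.6, pandas 2.3.3, scipy 1.17.1 and matplotlib 3.10.9.

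The 10 genes and all lists were chosen with earlier results of these data known. Named were all 10 genes and, of each list, genes with a limma adjusted p under 0.05 and the 3 with the largest ratio of group averages among those averaging 100 or more, of which 2 are not reported here. Other list genes named (Dlat, Pdk3, Slc16a1, Slc16a8, Pkm, Myc, Ppargc1a, Pgk1, Ddit4 and Cpt1a) were picked for their role after their values were seen. No gene was ranked for likeness to another, since 4 libraries cannot rank it.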

Additional observations from a re-analysis of the deposited data

How the results depend on the processing

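The fold changes of Mpc2, Pdk1, Pdk2, Pdk4, Ldha, Ldhb and Pcx kept their direction under every alternative in which they were tested, with Pdk4 between -5.20 and -2.24 and Pdk2 between 0.93 and 1.56 on the log2 scale. Rescaling to nuclear protein-coding genes, which shifts all genes alike, turned Mpc1 to 0.27, Pdha1 to 0.033 and Pdhb to 0.23, beside a median of 0.21 over all genes on that scale. Quantile normalization turned Pdha1 to 0.011 and Pdhb to 0.10. Leaving out 1 library gave -0.14 to 0.058 for Mpc1 (0.026 without basal replicate 1), -0.29 to 0.13 for Pdhb and -0.10 to 0.85 for Mpc1 over Mpc2. The median of the 10 genes ranged from -0.29 to 0.13, highest under the rescaling to nuclear protein-coding genes. limma called 1 of the 10, Pdk4, under the strict filter (every sample at 10 or more and both averages at 20 or more), as did edgeR (1) and DESeq2 (1). A 3-fold threshold kept 2 of the 4 genes past the 2-fold one. Over all genes limma called 130, but 0 with no filter (4455 at an unadjusted p under 0.05), 678 under the strict filter, 531 with pseudocount 10, 381 under quantile normalization, 544 without the trended prior and 312 to 991 with 1 library left out, beside 951 in edgeR and 819 in DESeq2. Of the 58 related genes limma called 2, and 0 with no filter, 6 under the strict filter, 5 with pseudocount 10, 1 under median-ratio, TMM, nuclear protein-coding and quantile scaling each, 1 without the trended prior (Adm in these 5), 0 to 1 with 1 library left out, 9 in edgeR and 7 in DESeq2. The cause of these shifts was not tested. Where a group is left with 1 library, that library is assumed to vary like the other group. No paired analysis was possible because the groups share fewer than 2 replicate numbers. Depth limits Mpc1, Pdk4 and Ldhb most, with at most 10 reads in each luminal library.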

Other observations

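In 560 genes at least 1 value lay off the spacing of 1 read of its own library. Of 164 such values checked in basal replicate 1, 100.0% lay on the spacing of basal replicate 3 (6.50). The 346 in basal replicate 3 all lay on a spacing of 7.92, which none of the 4 libraries has. In luminal replicate 3, 98.8% of 240 lay on the spacing of luminal replicate 2 (31.2), and in luminal replicate 2, 99.0% of 303 lay on 18.9. Among the genes named in the text these were Ldhb, Pdhx and Gpt2, each in both basal libraries and in neither luminal one. Without such genes limma called 136 genes, and 3 of the remaining 9 pyruvate genes (Pdk1, Pdk2 and Pdk4) passed the 2-fold threshold. The cause was not tested.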
